A study of Mus musculus with 3 samples.

Results

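The cytosolic ribosomal protein genes were examined in normal muscle of the mouse, of which 3 samples were profiled (muscle 1, 2 and 3). A gene was taken as a member if its symbol started with Rpl or Rps, the P-stalk genes Rplp included and the S6 kinase genes Rps6k left out, and if at least 1 probe set on the array was annotated to it alone. This gave 49 genes of the 12394 genes measured: 20 of the large subunit, 2 of the P stalk, 20 of the small subunit, 6 paralogues and 1 pseudogene. Where a gene had several single-gene probe sets, the one with the highest mean over the 3 muscles gave its level. All 3 muscles came from animals of 3 to 6 weeks with the genotype given as littermate control, and their RNA was hybridised to 1 array each. In the study they served as the normal reference for tumours that arose from Pax7-expressing satellite cells, the stem cells of muscle. The alleles the littermates carried, the muscle dissected, whether each sample was a separate animal, and whether these animals received the 4-hydroxytamoxifen named in the treatment protocol are not stated in the labels. Tumour samples were not analysed here, so there was 1 group and no contrast between conditions.

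The cytosolic ribosome translates all mRNAs made in the nucleus. Its large subunit holds the peptidyl transferase centre and its small subunit reads the codons, and each is built from ribosomal RNA and a set of proteins, most of them present once per ribosome. Ribosomal protein mRNAs mostly begin with a C followed by a run of pyrimidines, the 5′ terminal oligopyrimidine tract, through which the mTOR pathway controls their translation as a group. Skeletal muscle also makes Rpl3l, a paralogue that replaces Rpl3 in part of its ribosomes. Most ribosomal protein genes have left many processed pseudogenes in the mouse genome, so a short probe often matches several loci.

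Levels are log2 RMA values as the authors deposited them, and errors are the SD over the 3 muscles (n = 3), which may be technical. Each muscle had a median of 6.12 over the whole array, and with 3 arrays the precision is limited. To set a background level in each muscle, 67 genes of other organs such as retina, testis, liver and brain were taken, and the 95th percentile over their 94 probe sets was used. It lay at 5.49, 5.33 and 5.49 in muscles 1, 2 and 3. A gene above it in all 3 muscles is called detected, which held for 4 of the 67 background genes themselves, so a few calls near background may be false. The strength of hybridisation varies from probe to probe, so no gene's level is read as higher or lower than that of another gene. Markers of the labelled tissue were high: all 6 muscle markers (Acta1, Ckm, Myh4, Tnnt3, Ttn and Mb) had means between 12.85 and 13.62. All 5 fibroblast markers and all 4 endothelial markers were detected too. Of the 3 satellite cell markers, Myf5 and Cdh15 were detected, and Pax7 was above background in 1 muscle.

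Of the 49 ribosomal protein genes, 44 were detected in all 3 muscles, which is 89.8%, against 64.7% of all genes on the array. The means of these 44 ran from 5.96 to 13.02 with a median of 12.02. A mean above 11 was found for 36 of the 49 (73.5%) and for 447 of the 12394 genes (3.61%), which describes the signal of the chosen probe sets and not transcript amounts. All 20 small subunit genes, 17 of 20 large subunit genes, both stalk genes and 5 of 6 paralogues were detected on the chosen probe sets. Rpl12, Rpl14 and Rpl39 were above background in only some muscles, and Rpl39l and the pseudogene Rps15a-ps6 in none.

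**Figure D1:**
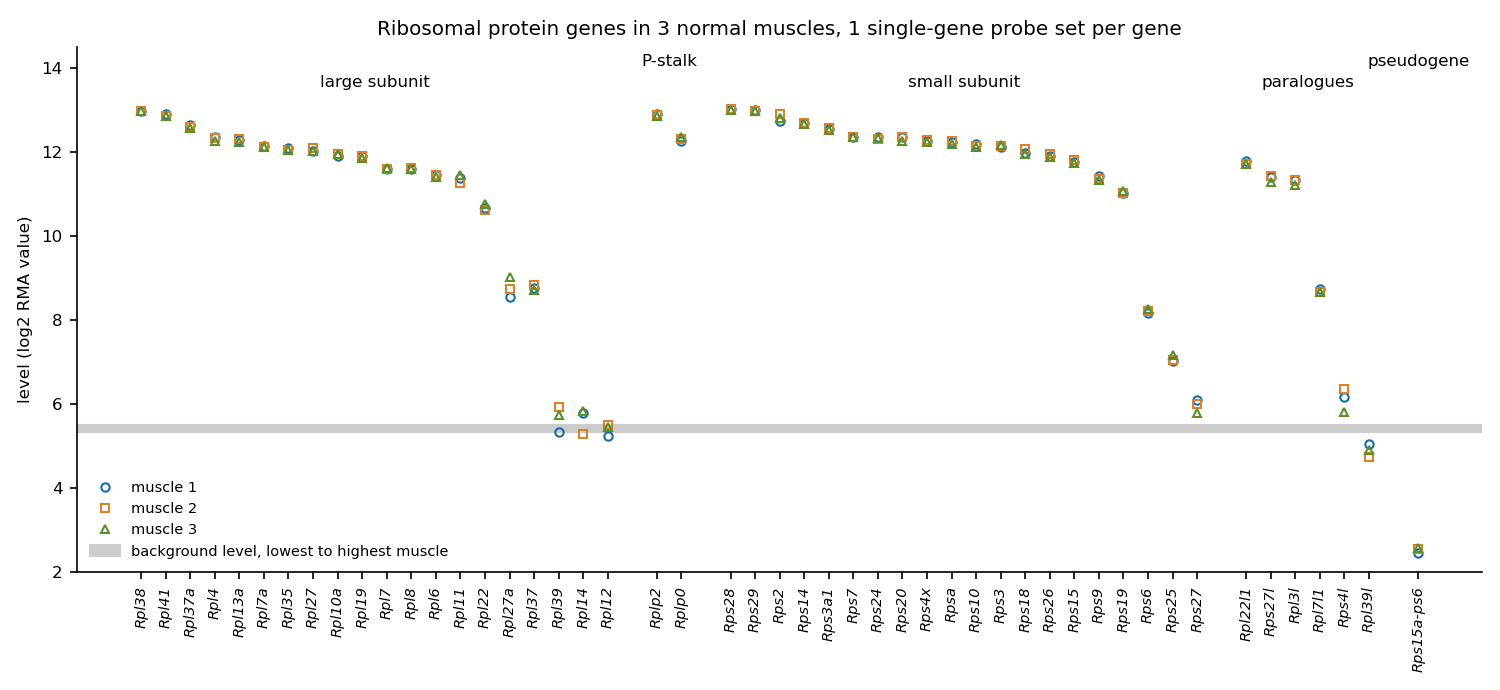
Level of each of the 49 ribosomal protein genes (log2 RMA value, y axis) in muscle 1 (circles), muscle 2 (squares) and muscle 3 (triangles), grouped by role; the order within a group follows the mean and is no ranking of transcript amounts. Most genes sit between 11 and 13.02 with the 3 symbols nearly on top of each other, while Rpl39, Rpl14, Rpl12, Rps27 and Rps4l lie near the grey background band with wider spacing, and Rpl39l and Rps15a-ps6 lie below it.

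Among the large subunit genes, Rpl38, a protein known for its part in patterning the axial skeleton, read 12.98, 12.97 and 12.98 in muscles 1, 2 and 3. Rpl7 read 11.60, 11.60 and 11.61, and Rpl8, which lies near the peptidyl transferase centre, read 11.59, 11.62 and 11.60. These were among the 5 detected members with the smallest range between muscles, at 0.018 for Rpl38 and Rpl7 and 0.025 for Rpl8. The ranges are those of the chosen probe sets. Another single-gene probe set of Rpl7 read 11.56, 11.37 and 11.61, a range of 0.24. Rpl11 forms a particle with Rpl5 and 5S RNA that binds Mdm2 and thereby stabilises p53. Its levels were 11.38, 11.27 and 11.46, lowest in muscle 2 and highest in muscle 3. Rpl5 had no single-gene probe set. Its brightest shared probe set, also named for the pseudogene Rpl5-ps2, read 12.16, 12.23 and 12.18. Rpl22, an RNA-binding protein of the large subunit, read 10.66, 10.62 and 10.76.

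The single-gene probe sets of Rpl27a and Rpl37 lay lower. Rpl27a read 8.55 in muscle 1, 8.75 in muscle 2 and 9.01 in muscle 3, the second widest range among the detected members at 0.46. Rpl37 read 8.75, 8.84 and 8.70. The 3 large subunit genes not detected in every muscle straddled the background level. Rpl12 read 5.23, 5.50 and 5.45 and was above background in muscle 2 alone. Rpl14 read 5.78, 5.27 and 5.82 and fell below it in muscle 2, while Rpl39, one of the smallest ribosomal proteins, read 5.33, 5.92 and 5.74 and fell below it in muscle 1. For these 3 genes a shared probe set gave a high level, as described further on.

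The P stalk recruits the translational GTPases to the large subunit. Its scaffold Rplp0 read 12.27, 12.30 and 12.36, with a mean of 12.31 ± 0.04 (SD, n = 3). Rplp2 read 12.90, 12.89 and 12.85. Rplp1 had no single-gene probe set, and a probe set it shares with Gm13777 read 12.62, 12.66 and 12.56. The stalk genes thus differed between muscles by no more than 0.10 on the log2 scale.

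Of the small subunit genes, Rpsa, also known as a laminin receptor, read 12.23, 12.26 and 12.20. Rps19, the gene most often mutated in Diamond-Blackfan anaemia, read 11.03, 11.03 and 11.06. Rps7 had the narrowest range of all detected members, 0.010, with 12.35, 12.36 and 12.35 on its chosen probe set. Its other single-gene probe set read 11.93, 11.66 and 11.98, a range of 0.32. Rps14, lost in the 5q- syndrome, read 12.68, 12.68 and 12.66. Rps2 and Rps18 had wider ranges of 0.17 and 0.13. Rps2 read 12.74, 12.91 and 12.81, and Rps18 read 11.98, 12.08 and 11.95, so both were highest in muscle 2 on the chosen probe set. The 2 probe sets that Rps2 shares with other loci lay at like level but were lowest in muscle 2. They read 12.98, 12.93 and 12.98, and 12.82, 12.80 and 12.82. Rps6, the substrate of the S6 kinases, read 8.17, 8.20 and 8.25 on the brighter of its own 2 probe sets. Rps25, which is needed for internal initiation on some viral RNAs, read 7.01, 7.04 and 7.15. Rps27, a zinc finger protein of the small subunit, read 6.10, 6.01 and 5.77, close to background. Fau, a ubiquitin-like fusion whose ribosomal part is the small subunit protein eS30, carries neither prefix and is no member; its 3 levels were 11.41, 11.36 and 11.47.

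The human counterparts of 19 genes are on a list of Diamond-Blackfan anaemia genes, a failure of red cell production caused by loss of 1 copy of a ribosomal protein gene. Of these, 11 were measured as members and all 11 were detected, with means from 5.96 for Rps27 to 13.02 for Rps28. Their median SD was 0.028. By limma's variance test 0 of the 11 were called, and 1, Rpl11, had an unadjusted p under 0.05, where 0.0693% of all genes tested were called and 4.96% had such a p.

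The paralogues were the group with the widest spread, with a median SD of 0.069 over the 5 detected, the highest SD being 0.28 for Rps4l. The groups were not matched for level, and SD falls as level rises. Rps4l and Rpl7l1 had means of only 6.10 and 8.70. Rpl3l read 11.34, 11.34 and 11.22 (mean 11.30 ± 0.07), far above background in every muscle. Its parent Rpl3 had only shared probe sets, of which 1, also named for Gm12816, read 10.98, 10.99 and 10.97 and another read 5.72, 5.84 and 5.85. The levels of Rpl3l and Rpl3 come from different probes, so which transcript was more abundant was not determined. Rpl22l1 read 11.78, 11.72 and 11.72, and its parent Rpl22 is given above. Rps27l, a p53 target in other tissues, read 11.40, 11.43 and 11.29, and its other 2 probe sets had means of 11.05 and 11.09. The SD was 0.077 on the chosen probe set of Rps27l and 0.037 and 0.031 on the other 2. Rpl7l1 read 8.74, 8.67 and 8.67. Rps4l read 6.15, 6.35 and 5.80, the widest range of any detected member at 0.55, while its parent Rps4x, encoded on the X chromosome, read 12.25, 12.28 and 12.23. Rpl39l, known from testis, read 5.04, 4.73 and 4.89 and was below background in every muscle. Rpl10l, Rpl36al and Rps4y2 had no probe set of their own; the parent Rpl10 read 12.55, 12.50 and 12.47 on its brighter shared probe set. The pseudogene Rps15a-ps6 read 2.45, 2.54 and 2.56.

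How much of the ribosome these values cover depends on the probe annotation. Of 80 proteins on a list of the standard set, 43 had a single-gene probe set, 27 had only probe sets that also name other loci, and the rest were not analysed here. The array held 102 probe sets that name a ribosomal protein and at least 1 more locus, and 96 of them could be assigned to 1 ribosomal protein, the other names being pseudogenes, retrogenes or unnamed loci. Of the 102, 93 were above background in all 3 muscles, against 12925 of the 22690 probe sets of the array. Through these, 25 of the 27 genes with shared probe sets alone were detected. The other two, Rpl35a (shared with Ino80, at 12.34, 12.35 and 12.23) and Rpl36a (shared with its paralogue Rpl36al, at 11.28, 11.40 and 11.25), could not be assigned to 1 gene. Counting both kinds of probe set, 68 of the 80 were detected in all 3 muscles. A gene counted here through its chosen or any shared probe set, so the share of all genes given earlier does not compare. A shared probe set adds signal from every locus it matches, so these levels are not those of 1 gene.

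For 8 members the single-gene probe set was dim and a shared one bright. Rpl39 had a mean of 5.66 on its own probe set and 13.04 on the one it shares with Gm32211, which read 13.04, 13.09 and 12.99. Rps27 had 5.96 on its own and 12.40 on one shared with the retrogene Rps27rt. Rpl12 had 5.39 on its own against 11.65 and 11.11 on 2 shared ones, and Rpl14 had 5.62 against 5 shared ones between 10.58 and 11.91. Rps25 stood at 7.07 and 11.71, and Rpl27a at 8.77 and 12.22. Rpl37 stood at 8.76 against up to 12.39, though another shared probe set had 7.43. Rps6 stood at 8.21 against up to 12.80 over 9 shared probe sets, of which 8 were detected. The reverse was seen for Rpl11, at 11.37 on its own probe set and 4.40 on the one shared with Gm5093, and for Rps19, at 11.04 and 6.33. Rpl37a had 12.61 on its chosen probe set and 7.47 on the one shared with Mir682, but another of its own had 6.51. Values near or below background are thus levels of these probe sets, and do not show that a gene is silent.

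**Figure D2:**
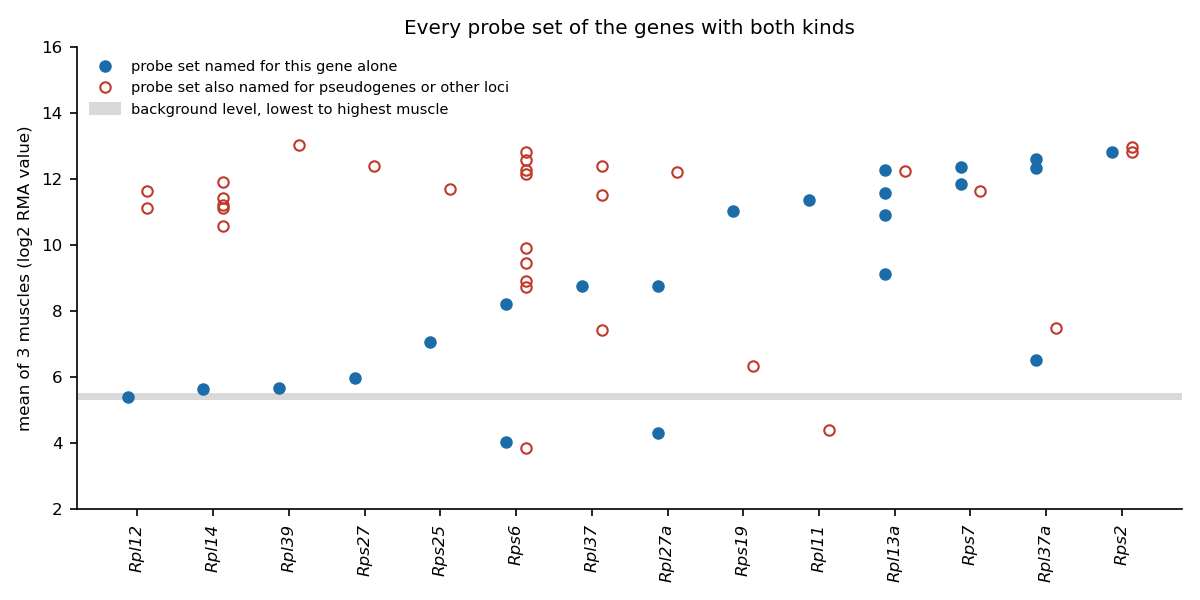
Mean level over the 3 muscles (log2 RMA value, y axis) of every probe set of the 14 members that have both kinds, with filled circles for probe sets named for that gene alone and open circles for those also named for other loci; the grey band is the background level. Rpl12, Rpl14, Rpl39, Rps27 and Rps25 are dim on their own probe set and at 10.58 or above on each shared one, whereas Rpl11 and Rps19 show the opposite.

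Probe sets of the same gene also disagreed where none was shared. The 49 members had 101 single-gene probe sets, of which 81 were detected in all 3 muscles and 15 in none, and 23 members had more than 1. Over the array, 12925 of 22690 probe sets were detected in all 3 muscles. The 6 probe sets of Rps18 comprised 3 between 11.64 and 12.01 and 3 below background in every muscle. Rps20 had 2 of 4 below background, and Rps24, Rpsa and Rps10 had 1 each, of 6, 2 and 6. No size is given for these gaps, since their lower end is not above background. The smallest differences between the means of a gene's own probe sets, all of them detected, were 0.12 for Rps14, 0.16 for Rps15, 0.23 for Rpl7, 0.29 for Rps29 and 0.32 for Rps27l. Taking the brightest probe set gives the upper end of such a span. The chosen probe sets of the members also differed in kind: the suffix _x_at, which marks probes shared with other sequences, was borne by 12 of 49 (24.5%) against 3.75% of all genes, and _a_at, for several transcripts of 1 gene, by 19 (38.8%) against 16.9%.

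The spread between muscles was small. The median SD of the 44 detected members was 0.033 on the log2 scale, a factor of 1.02, against 0.083 or a factor of 1.06 over all 8014 detected genes. An SD below 0.05 was found for 32 of the 44 (72.7%) and for 27.3% of all detected genes. SD falls as the probe set level rises on these arrays, and the chosen probe sets of the members mostly have high levels. Over the 182 other genes whose means lay between 11.37 and 12.33, the middle of the members' levels, the median SD was 0.032, and it was 0.031 for the 22 members there. At like level the ribosomal protein genes thus showed about the same spread as other genes. The 74 mitochondrial ribosomal protein genes, which lie at lower levels, had a median SD of 0.053.

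**Figure D3:**
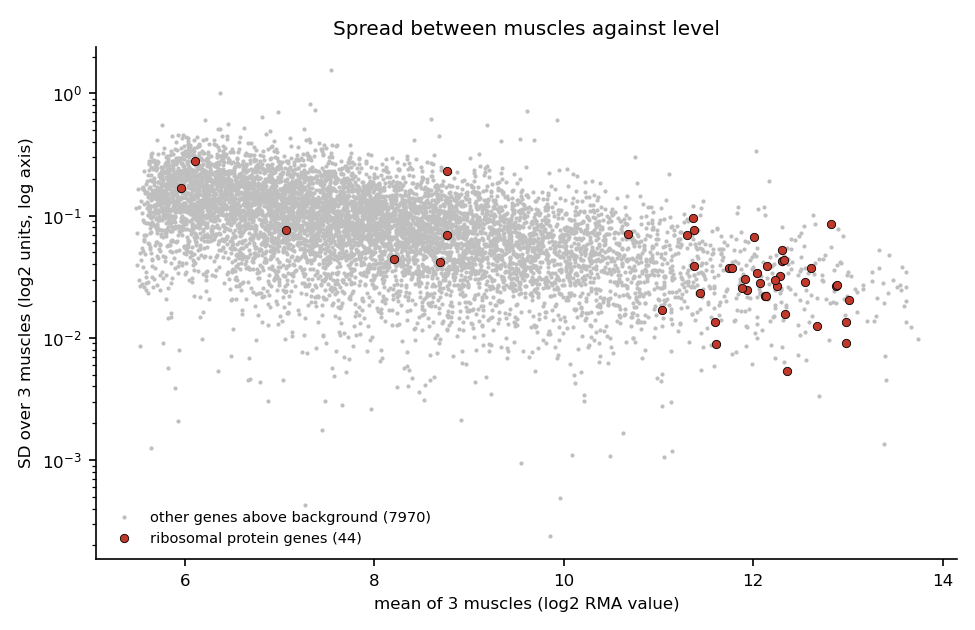
SD over the 3 muscles (log2 units, log axis) against mean level (log2 RMA value) for the 44 detected ribosomal protein genes (red) and the other detected genes (grey). The red points lie within the grey cloud, mostly at its lower right end, with Rps4l, Rpl27a and Rps27 as the members of highest SD.

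A variance test with limma asked which genes varied more between muscles than genes of like level. None of the 47 members above background in at least 1 muscle was called at a Benjamini-Hochberg adjusted p of 0.05, where 0.0693% of the 8661 genes tested were called (6 genes). At an unadjusted p under 0.05 there were 3 members, against 4.96% of all genes. They were Rpl27a (SD 0.23, limma adjusted p = 0.832), Rps2 (SD 0.086, limma adjusted p = 0.839) and Rpl11 (SD 0.096, limma adjusted p = 0.977). On the chosen probe sets, Rpl27a was highest in muscle 3, Rps2 in muscle 2 and Rpl11 in muscle 3. Rpl27a and Rps2 were lowest in muscle 1 and Rpl11 in muscle 2. Detected shared probe sets went otherwise: those of Rps2 were lowest in muscle 2 and that of Rpl27a in muscle 3. A range of at least 1 on the log2 scale, which is 2-fold, was reached by 0 members and by 0.439% of the genes tested. Among the 44 detected members the widest range was 0.55, for Rps4l. With 3 samples, the absence of a call does not show that a gene is equal in the 3 muscles. In whole muscle, fewer cells of a type and less RNA per cell cannot be told apart.

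Small departures were shared by many members. For each gene, the departure of a muscle was taken as its level less the average of the remaining pair. Muscle 3 was the lowest of the 3 for 30 of the 44 detected members (68.2%), muscle 1 for 10 and muscle 2 for 4. The median departures were 0.01 in muscle 1, 0.01 in muscle 2 and -0.03 in muscle 3. Over all detected genes muscle 3 was lowest for 45.9%, with the same median departure of -0.03. Among the 182 genes of like level it was lowest for 76 (41.8%), with a median of -0.01, and among the 22 members of that level for 17, with a median of -0.04. It was also lowest for 47 of the 74 mitochondrial ribosomal protein genes (63.5%), with a median of -0.04. The order of the muscles rested on the scaling: after quantile normalization of the 3 columns muscle 3 was lowest for 16 of the 44 members (36.4%), against 36.1% of all detected genes and 51 of the 182 genes of like level. The median departure in it was then -0.011 for the members, -0.003 for all detected genes and 0.009 for the genes of like level. After median centring the count was 28 (63.6%).

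The departure was seen on both kinds of probe set in the deposited values. Muscle 3 was lowest on 55 of the 81 detected single-gene probe sets (67.9%), on 56 of the 93 detected shared ones (60.2%) and on 45.5% of all detected probe sets of the array. Of 28 ribosomal protein genes with at least 3 detected probe sets of either kind, 10 had muscle 3 lowest on every one and 2 on none. The same count was not made for other genes, so it is not read as particular to these. Probe sets of 1 gene measure the same RNA and are not independent. The 5 detected paralogues were all lowest in muscle 3, with departures from -0.03 for Rpl22l1 to -0.45 for Rps4l and -0.12 for Rpl3l. After quantile normalization 3 of the 5 were. The median departure of the 5 in muscle 3 was -0.119 in the deposited values and -0.106 after quantile normalization. On the chosen probe sets, Rpl11, Rpl22, Rpl27a, Rplp0, Rps6, Rps19 and Rps25 went the other way and were highest in muscle 3. So were Rpl7, Rpl10a and Rps3. Other probe sets disagreed for some of these. The shared probe set of Rpl27a read 12.22, 12.26 and 12.17 and that of Rps25 11.71, 11.78 and 11.65. Both are brighter than the chosen one and were lowest in muscle 3. Muscle 3 was also lowest on 3 of 9 detected probe sets of Rps6, 1 of 2 of Rps19 and 1 of 3 of Rpl7.

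**Figure D4:**
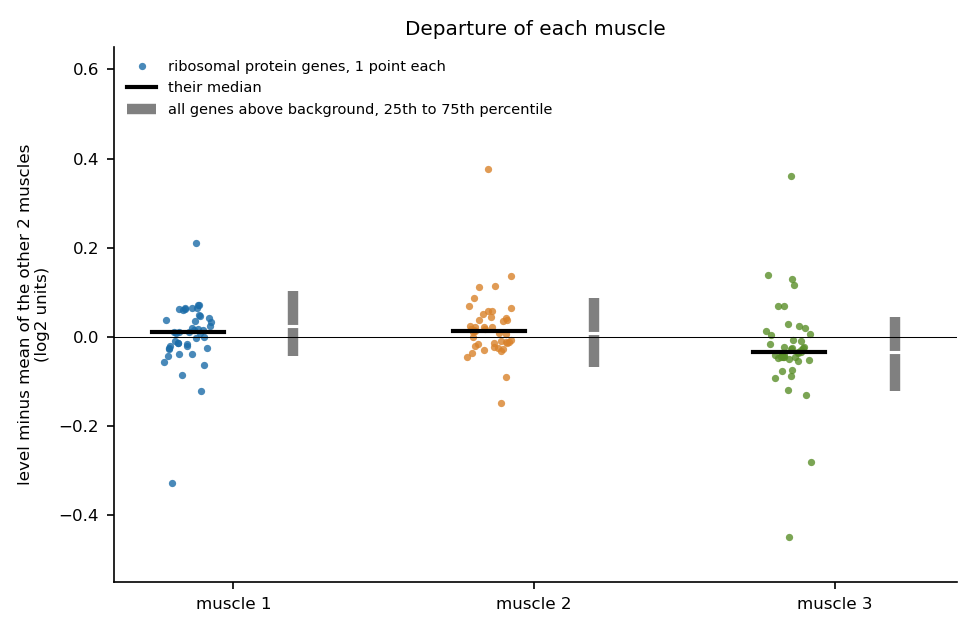
Departure of each muscle from the average of the remaining pair (log2 units, y axis), with 1 point for each of the 44 detected ribosomal protein genes, a black line at their median and a grey bar from the 25th to the 75th percentile of all detected genes, whose median is the white line. The points cluster within about 0.1 of 0 in each muscle, with the median at -0.03 in muscle 3, where all detected genes also have a median of -0.03; after quantile normalization the members' median there is -0.01.

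Other measures moved with the muscles as well. The array's own 18S ribosomal RNA probe sets were highest in muscle 3: the 5′ one read 10.96, 11.23 and 11.69 and the 3′ one 10.34, 10.50 and 10.77. The 3′ minus 5′ difference of Gapdh, a sign of RNA integrity, was 0.33, 0.43 and 0.37, and that of Actb was 0.76, 0.77 and 0.61. The summed linear level of the 4 endothelial markers was 797, 809 and 661, that of the 4 macrophage markers 1374, 1391 and 1248, and that of the 3 measured lymphocyte markers 795, 751 and 703, each lowest in muscle 3. Such sums are carried by the brightest probe sets, and single markers went other ways: Cd79a and Cd68 were highest in muscle 3, Pecam1 was lowest in muscle 1 and Cd14 in muscle 2. Cd68 and Cd14 were each above background in only 2 muscles, so their order is uncertain. The sum of the 2 measured adipocyte markers was 1603, 1595 and 1390, with Lep below background in muscle 3. That of the 5 fibroblast markers was 23328, 23915 and 23216. The 6 muscle markers summed to 61925, 63181 and 63051, lowest in muscle 1. The part of these differences in the ribosomal protein values was not tested.

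Genes of ribosome production and its control were measured beside the members. Of 26 ribosome biogenesis factors, 24 were measured and all 24 detected. By limma's variance test 0 of them were called, with 1 at an unadjusted p under 0.05 (0.0693% and 4.96% of all genes tested). Their median departure in muscle 3 was -0.09, and it was -0.04 after quantile normalization. Nucleolin, Ncl, read 10.18, 10.11 and 10.10. The nucleolar chaperone Npm1 read 10.92 and 10.93 in muscles 1 and 2 and 10.40 in muscle 3, with a limma adjusted p of 0.0721. The snoRNP proteins Fbl, the methyltransferase, and Nop56 read 8.94, 8.91 and 8.75 and 8.54, 8.44 and 8.30. Of 17 genes of the S6 kinases and the TOR pathway, 10 were measured and 9 detected, with Rps6kl1 below background, and 0 were called by limma or had an unadjusted p under 0.05 (0.0693% and 4.96% of all genes). The S6 kinase Rps6kb2 read 6.41, 6.15 and 6.11, and the ribosomal S6 kinase Rps6ka3 read 10.44, 10.48 and 10.47. Rps6kb1 and Rps6ka1 were not analysed here. The median departure of the 9 in muscle 3 was -0.01, and 0.02 after quantile normalization.

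Of 12 other genes whose mRNAs are known to carry such a 5′ tract, most of them translation factors, 11 were measured and detected. By limma 0 were called, with 1 at an unadjusted p under 0.05, against the same shares of all genes (0.0693% and 4.96%). The elongation factor Eef1a1 read 11.67, 11.74 and 11.65, its exchange factor Eef1b2 11.67, 11.67 and 11.53, the translocase Eef2 11.47, 11.48 and 11.46, and Tpt1, which is no translation factor, 13.29, 13.32 and 13.30. Muscle 3 was lowest for 5 of the 11, with a median departure of -0.01. All 74 mitochondrial ribosomal protein genes, which build the separate ribosome of that organelle, were detected, and by limma 0 were called, with 3 of 74 at an unadjusted p under 0.05, against 0.0693% and 4.96% of all genes. Mrpl1 read 8.03, 8.07 and 7.89, Mrpl10 7.88, 7.73 and 7.78, Mrpl11 9.53, 9.57 and 9.46, and Mrpl12 11.14, 11.13 and 11.14. After quantile normalization muscle 3 was lowest for 29 of the 74.

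The sequence around the annotated transcription starts was read for the members, because the 5′ tract is what ribosomal protein mRNAs are known to share and the rule for members did not use it. A RefSeq table of windows from 250 bases before to 50 after each start, of the build GRCm38.p6, held 42 of the 49 members with 50 windows. A tract was defined as a C at the annotated start followed by at least 4 bases that are each C or T. It was found for 8 of the 42 members (19.05%), against 3.01% of all 27025 genes in the table and 3.18% of the 6504 detected genes with a window. With at least 6 pyrimidines after the C, 6 members remained (14.3%, against 1.29% of all genes). A tract beginning within 5 bases of the annotated start was found for 20 members (47.6%), against 21.2% of all genes and 24.3% of detected genes. Allowing more start positions raised the share in every set. Of the 27 proteins with shared probe sets alone, 19 had a window and 5 of these (26.3%) a tract at the start. In the 21 bases at the start, the median share of pyrimidines was 61.9% for the members and 52.4% for all genes.

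The 8 members with a tract are printed with 15 bases before the start and 15 from it on, on the strand of the gene, with the tract in capitals. They are shown for the length and letters of the run, since its first base is fixed by the definition; in some, such as Rpl14, Rpl35 and Rps10, pyrimidines also precede the start. Positions are Rpl14 chr9:120571502-120571531 (+), Rpl35 chr2:39005117-39005146 (-), Rpl38 chr11:114668565-114668594 (+), Rplp2 chr7:141447636-141447665 (+), Rps6 chr4:86857353-86857382 (-), Rps10 chr17:27635230-27635259 (-), Rps18 chr17:33955651-33955680 (-) and Rps27 chr3:90213634-90213663 (-).
Rpl14: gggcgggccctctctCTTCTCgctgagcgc
Rpl35: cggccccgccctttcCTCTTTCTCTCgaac
Rpl38: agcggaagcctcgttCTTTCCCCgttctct
Rplp2: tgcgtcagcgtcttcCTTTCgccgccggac
Rps6: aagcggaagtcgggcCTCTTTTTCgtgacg
Rps10: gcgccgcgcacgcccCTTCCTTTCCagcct
Rps18: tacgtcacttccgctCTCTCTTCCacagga
Rps27: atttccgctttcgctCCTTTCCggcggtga

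The runs were 5 bases long in Rplp2, 6 in Rpl14, 7 in Rps27, 8 in Rpl38, 9 in Rps6 and Rps18, 10 in Rps10 and 11 in Rpl35. For contrast, the muscle paralogue Rpl3l had no tract at or within 5 bases of either of its 2 annotated starts, the first of which lies at chr17:24727811-24727840 (+) in the window shown, and Rpl22l1, at chr3:28805493-28805522 (+), had one only within 5 bases of its start.
Rpl3l: gagtgttctagctctgtcatttgacctctg
Rpl22l1: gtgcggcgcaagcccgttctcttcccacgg

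Spread was also set out by tract, with no test. The 7 detected members with a tract at the start had a median SD of 0.038 and a median departure of -0.045 in muscle 3, and the 31 without had 0.034 and -0.034. Among the 7 were Rpl38 with one of the narrowest ranges and Rps27 with one of the widest. With a tract within 5 bases of the start, the 17 detected members had a median SD of 0.037 and a median departure of -0.034. The 21 without had 0.034 and -0.035.

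Other motifs known from promoters were searched on both strands of the whole windows. CCGGAAG, a core bound by Ets-family factors, was present for 21 of the 42 members (50%), against 9.93% of all genes and 20.8% of detected genes. AAGATGGC, the core bound by YY1, was present for 4 (9.52%) against 3.19% and 5.63%. The GC box GGGCGG was present for 24 (57.1%) against 38.2% and 70.5%, and TATAA for 13 (30.95%) against 27.99% and 16.2%. CCGGAAG and AAGATGGC can share the AAG where one runs into the other, and the reverse complement of GGGCGG can end in the CC that begins CCGGAAG. A match is a description of these letters and not a bound site.

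**Figure D5:**
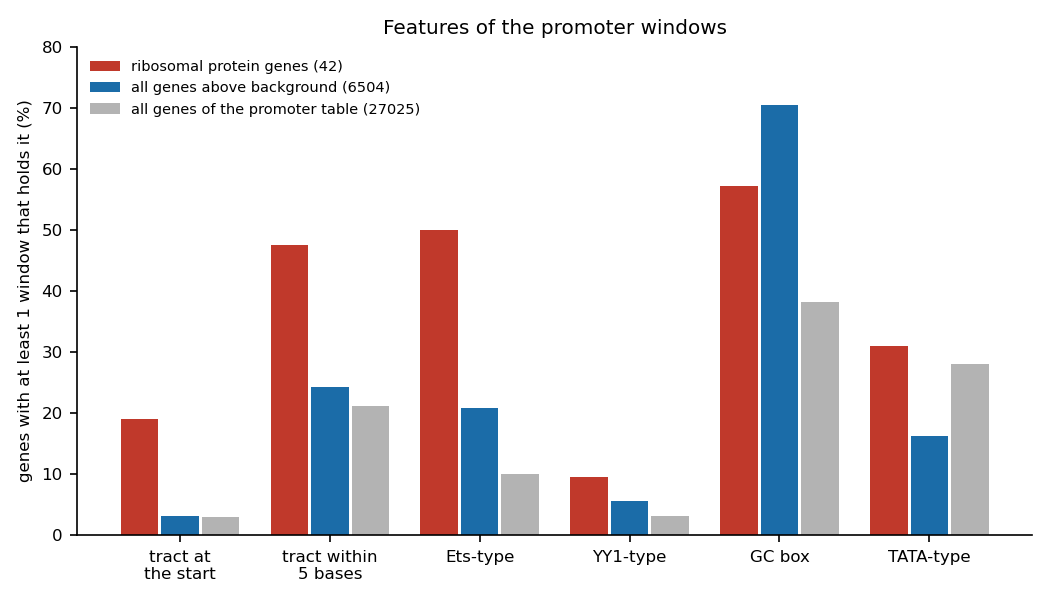
Percent of genes with at least 1 promoter window that holds each feature, for the 42 ribosomal protein genes with a window (red), the 6504 detected genes with a window (blue) and all 27025 genes of the table (grey). The pyrimidine tract at the start stands at 19.05% against 3.18% and 3.01%, and the Ets-type motif CCGGAAG at 50% against 20.8% and 9.93%; the GC box stands at 57.1% against 70.5% and 38.2%.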

How the data were processed

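RNA levels were measured on 3' expression arrays in 3 samples of normal muscle, the only group. Per the labels, Trizol was used to extract total RNA, of which 500 ng went into amplification with biotin label. The values the authors deposited are on the log2 scale, 1 for every probe set of an array, and come from RMA per the submitters' processing notes. Its version and the set of arrays it was run on are not given in the sources used. RMA's quantile normalization hides a change shared by most genes.

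Of 22690 probe sets, 20393 had 1 gene, 691 several and 1606 none in GEO's platform annotation. The brightest single-gene probe set stood for a gene. Symbols of the 49 members matched those of RefSeq GRCm38.p6 through Entrez numbers, and 42 of the 49 had a promoter window. Variance was tested with limma 3.58.1 (R 4.3.3): for genes above background in at least 1 muscle, the variance (2 degrees of freedom) was compared with a robust prior with a trend on level, by a one-sided F test, Benjamini-Hochberg adjusted over all genes tested. The script was tested on simulated data. Everything else was computed with Python 3.11.15, numpy 2.4.6, pandas 2.3.3 and matplotlib 3.10.9. The labels do not say that the muscles came from separate animals, so p-values measure only the spread between these samples.

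Members and lists were chosen with earlier results of these data known. Named with full values were paralogues with their parents, stalk genes, a set of well-studied members (Rpsa, Rps6, Rps19, Rpl5, Rpl11, Fau), members not detected in every muscle, members with the 10 largest or 5 smallest ranges or with the 5 largest or 5 smallest differences between own probe sets, and the first 4 genes of each other list. Genes outside this rule were named after their values were seen. Alternatives were quantile normalization, median centring, the mean of a gene's probe sets, no _x_at or _s_at probe sets, a 99th percentile background, no filter, other limma settings, each muscle left out, and shared probe sets counted. Planned protein features were not computed, as protein sequences were not used here.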

Additional observations from a re-analysis of the deposited data

How the results depend on the processing

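No paired analysis was possible because there was 1 group. Quantile normalization, median centring, the mean of a gene's probe sets, leaving out _x_at and _s_at probe sets, the 99th percentile background and leaving out a muscle gave 36 to 45 detected members, with 0 called by the variance test and 0 with a 2-fold range under each. Leaving out _x_at and _s_at probe sets left 44 members, 36 of them detected. The level then moved by more than its SD for 8 of the 44. Rpl41 had a mean of 5.34 in place of 12.88, Rps20 4.35 in place of 12.32 and Rps24 5.71 in place of 12.34. The bright levels of Rpl41, Rps20 and Rps24 thus rest on _x_at probe sets. Counting shared probe sets, chosen after seeing the data, gave 72 detected of 74. At a 1.5-fold limit 1 member, Rpl39, was counted, but its lowest muscle lies below background, so its fold has no fixed size. The pyrimidine tract was found for 20 members within 5 bases of the start, in place of 8. Leaving out 1 muscle gave a median range of 0.033 (without muscle 3) to 0.050, a median SD of 0.023 to 0.036 and 44 to 45 detected. The median departure in muscle 3 stayed below 0 under each alternative that holds muscle 3, from -0.04 to -0.01, but that in muscle 2 was -0.003 after quantile normalization, and that in muscle 1 was -0.005 without muscle 3. When probe sets were averaged, the level moved by more than its SD for all 23 members with more than 1 single-gene probe set. The other 26 have 1 such probe set, so their level could not move. All genes called numbered 6, and from 0 to 14 over the alternatives: 12 after quantile normalization, 2 without the robust fit, 4 with the 99th percentile or no filter, 14 without muscle 2, and 0 with averaged probe sets, with no trend, or without muscle 1 or 3. Signal over background limits Rpl12, Rpl14, Rpl39, Rps27 and Rps4l.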
